A study of Mus musculus with 18 samples.

Results

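A wild-type sort of the lineage-traced progeny of Lgr5+ intestinal stem cells was compared with a wild-type Lgr5+ sort by single-cell RNA-seq, in 2 lineage-traced libraries (traced WT) and 2 Lgr5+ libraries (Lgr5 WT). Cells were barcodes with 500 to 18000 UMIs (unique molecular identifiers, the counted RNA molecules), 200 to 4000 genes and under 5% of UMIs from mitochondrial genes. That left 4880 and 6253 cells in Lgr5 WT 1 and 2, and 7589 and 3696 cells in traced WT 1 and 2, 22418 of the 51959 cells that the same limits kept in all 8 single-cell libraries of the series. The other 4 carry a Setdb1 deletion.

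The Lgr5 WT mice carried the Lgr5-GFP-CreERT2 allele, a knock-in that drives GFP and a tamoxifen-dependent Cre from the Lgr5 promoter and that is expressed in a mosaic of crypts. The traced WT mice carried the same allele and nTnG, a reporter in the ROSA26 locus that switches for good from nuclear tdTomato to nuclear GFP once Cre has acted. Both were male C57Bl6 mice of 60 to 65 days with intact Setdb1. Both received 1 intraperitoneal dose of 70 mg/kg tamoxifen 5 days before GFP-positive cells were sorted from ileal crypt epithelium. The sort of the Lgr5 WT mice was meant to take cells that make GFP from Lgr5 at the time, and the sort of the traced WT mice also descendants. The enrichment of the Lgr5 sort was incomplete, and progenitors and mature cell types were among its cells by the study's account. The sort, the nTnG allele and the library number series of the deposited matrices were the same split. The 2 Lgr5 WT and the 2 traced WT libraries fall in separate series, so any sequencing batch that goes with the series also follows the sort. Free RNA differed along the same split, as given below. These differences cannot be told apart.

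Lgr5+ crypt base columnar cells divide at the bottom of the crypt, beside the granule-filled Paneth cells that secrete alpha-defensins and lysozyme. Their daughters divide further as transit-amplifying cells and become absorptive enterocytes, which take up fat, sugars, peptides and bile acids at the villus, or secretory goblet, Paneth, enteroendocrine and tuft cells. Enterocytes and goblet cells leave the crypt within days, whereas Paneth cells stay at its base and live for weeks.

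Promoters are shown here for members of the enterocyte, drug-metabolising and Paneth genes described below. They are those of Fabp1 (a fatty acid carrier of enterocytes), Cyp3a11 (a drug-metabolising enzyme, the gene with the smallest p among those that rose) and Defa20 (an alpha-defensin of Paneth cells). Each holds 250 bases before and 50 after the RefSeq start on GRCm38.p6, and capitals mark matches on either strand to TTTATNG (letters bound by CDX2), CAAAGTCCA (letters bound by HNF4) or CTTTGAT (letters bound by TCF/LEF factors).
Fabp1, chr6:71199629-71199928, plus strand: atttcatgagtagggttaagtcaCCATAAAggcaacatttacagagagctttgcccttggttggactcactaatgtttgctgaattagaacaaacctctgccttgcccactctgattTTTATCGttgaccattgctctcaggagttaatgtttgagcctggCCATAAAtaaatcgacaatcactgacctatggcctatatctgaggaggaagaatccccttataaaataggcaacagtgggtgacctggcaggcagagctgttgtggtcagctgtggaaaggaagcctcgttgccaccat
Cyp3a11, chr5:145879805-145880104, minus strand: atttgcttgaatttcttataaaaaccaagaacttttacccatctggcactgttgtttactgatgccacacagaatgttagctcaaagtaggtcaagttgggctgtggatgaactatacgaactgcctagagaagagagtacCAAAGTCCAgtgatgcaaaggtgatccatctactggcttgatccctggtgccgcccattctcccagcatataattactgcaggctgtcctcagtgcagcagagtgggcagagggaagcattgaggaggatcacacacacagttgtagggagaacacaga
Defa20, chr8:21509008-21509307, plus strand: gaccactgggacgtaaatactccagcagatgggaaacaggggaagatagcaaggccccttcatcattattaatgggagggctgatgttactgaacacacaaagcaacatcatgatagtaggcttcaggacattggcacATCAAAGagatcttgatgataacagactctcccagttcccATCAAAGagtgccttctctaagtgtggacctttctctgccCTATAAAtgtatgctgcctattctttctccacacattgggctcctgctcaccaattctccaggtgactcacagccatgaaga
The Fabp1 promoter held 3 matches to the CDX2 letters. The Cyp3a11 promoter held 1 match to the HNF4 letters. The Defa20 promoter held 2 matches to the TCF/LEF letters and 1 to the CDX2 letters, which there overlaps TATAAA, the TATA box letters. Its sequence shared 293 of 300 positions with the promoters of Defa21 and Defa22, which were identical to each other over all 300.

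The traced WT libraries were shallower than the Lgr5 WT libraries, and a large part of their RNA came from Paneth cell genes. Total UMIs were 61197381 and 61853571 for Lgr5 WT against 35708084 and 27171512 for traced WT, and the median kept cell had 7494 and 6014 against 1416 and 1129.5 UMIs. The 25 listed Paneth genes made up 1.20% and 1.34% of the UMIs of kept cells in Lgr5 WT 1 and 2, and 39.3% and 37.9% in traced WT 1 and 2. In barcodes with 100 to under 500 UMIs, which lie below the size of a kept cell and are used here as a measure of RNA free in the suspension, they made up 6.49% and 8.68% against 44.98% and 47.4%. The median such barcode had 137 and 163 UMIs in Lgr5 WT and 274 and 275 in traced WT. The window is thus not alike in the 2 sorts, and cells of low depth in it are not excluded. Pairs of these libraries shared between 6 and 18 cell barcodes.

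The kept cells of the traced sort fell into 3 ranges of Paneth RNA, a division made after the values were seen. In traced WT 1, 70.3% of kept cells had under 20% of their UMIs from Paneth genes, 19.3% had 20 to 60%, and 10.4% had 60% or more. In traced WT 2, the corresponding shares were 33.5%, 60.8% and 5.63%, so this library had most of its cells in the middle range. These middle cells had a median of 866 UMIs and a median Paneth share of 45.1%, close to the 47.4% of the library's own barcodes of 100 to under 500 UMIs. In the Lgr5 WT libraries, 98.7% and 98.8% of cells were under 20%. Cells with 60% or more Paneth RNA numbered 26 and 19 in Lgr5 WT and 791 and 208 in traced WT, and had a median of 10719, 13639, 8646 and 7035.5 UMIs.

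**Figure D1:**
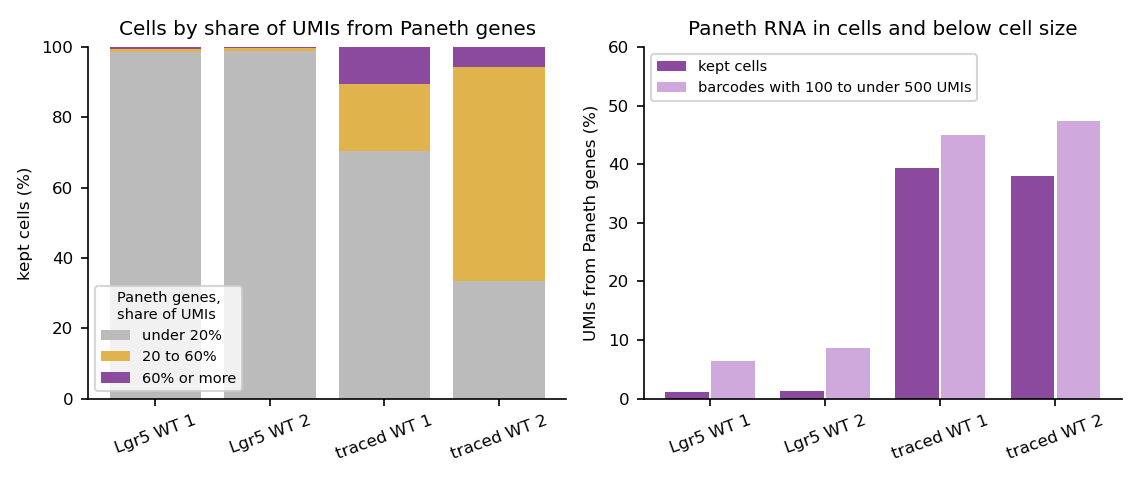
Left, percent of kept cells in each library whose UMIs came under 20%, 20 to 60%, or 60% or more from the 25 Paneth genes. Right, percent of all UMIs from those genes in kept cells and in barcodes with 100 to under 500 UMIs, where the traced libraries lie at 37.9% or more and the Lgr5 libraries at 8.68% or less.

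Summed over all kept cells, most genes tested differed between the sorts. Of 13278 genes tested, 3829 were higher in traced WT (28.8%) and 3862 were lower (29.1%), together 57.9%, at an adjusted p under 0.05 (edgeR, quasi-likelihood F-test; p-values adjusted by Benjamini-Hochberg, here and throughout). The groups did not overlap for 79.5% of genes tested. With the 2 libraries of a group, an exact two-sided permutation test of a single value cannot go below p = 0.333. Restricted to cells under 20% Paneth RNA, 3591 genes were higher (27.4%) and 3699 lower (28.2%), 55.7% in all, and 6870 genes were called in both fits, all with the same sign, which is 90.7% and 94.5% of the calls of each fit among genes tested in both. With the free RNA of each library also subtracted, 3496 genes were higher (26.8%) and 3574 lower (27.4%), 54.3% in all. The amount subtracted was estimated from the Paneth RNA of these same cells, so the limit of 20% caps it. Levels are given below as CPM, counts per 1e6 UMIs after TMM scaling, in the order Lgr5 WT 1, Lgr5 WT 2, traced WT 1, traced WT 2, and fold changes are log2, traced WT minus Lgr5 WT, with the standard error. Since libraries are sums over cells, fewer cells of a type and less of its RNA per cell cannot be told apart in these values. The study's methods describe the libraries as biological replicates and the labels only number them, so the p-values measure the spread between these libraries.

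**Figure D2:**
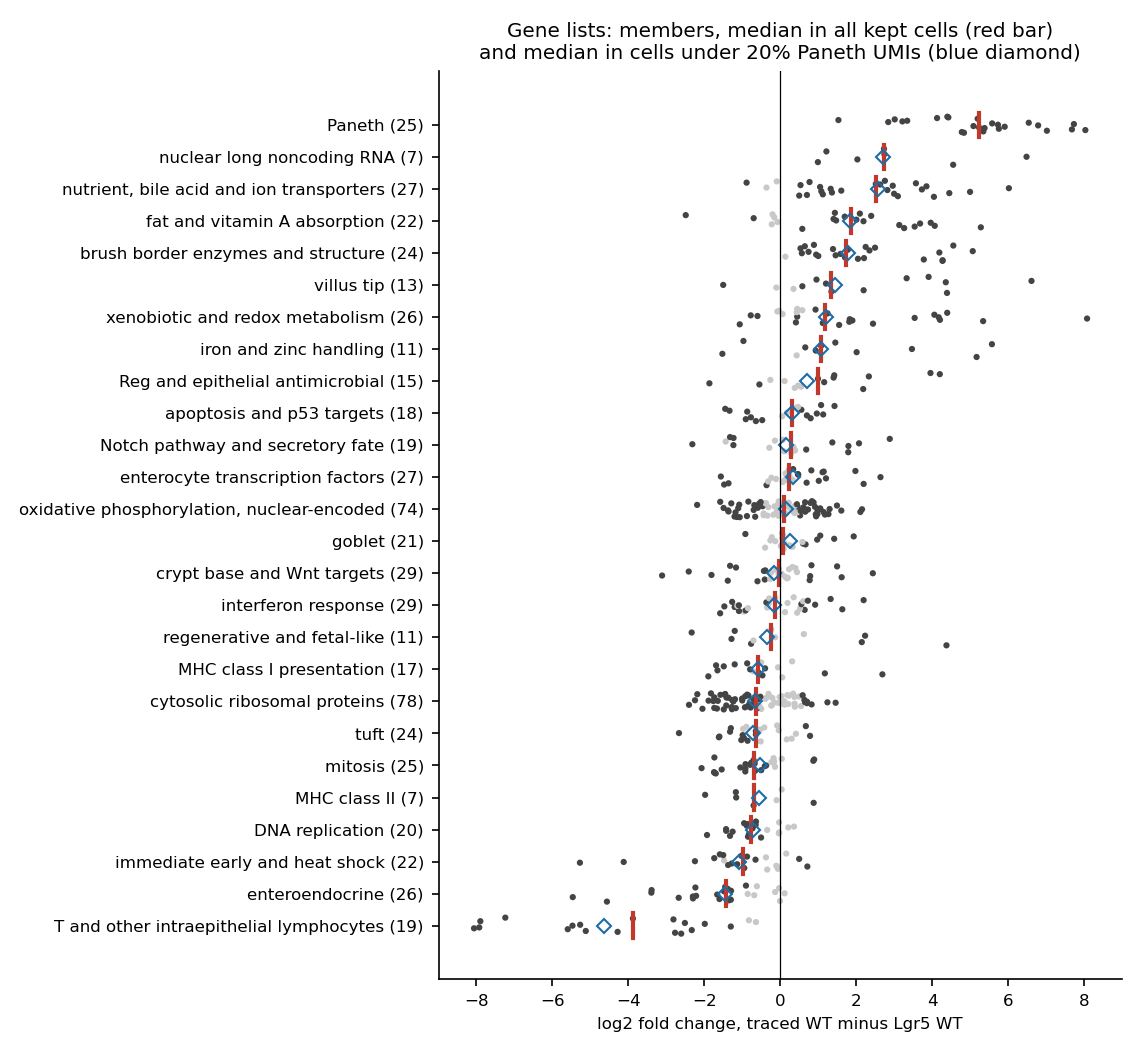
Log2 fold change, traced WT minus Lgr5 WT, of each tested member of the gene lists over all kept cells (dark points, adjusted p under 0.05; light points, not), with the median over all kept cells as a red bar and over cells under 20% Paneth RNA as a blue diamond; the number of members tested is in brackets. Paneth, absorptive and nuclear RNA lists lie at the top, enteroendocrine and lymphocyte lists at the bottom, and the median of the T cell list goes from −3.88 over all kept cells to −4.65 in the restricted cells. The Paneth list has no diamond, since its genes chose those cells.

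Of 29 crypt base genes and Wnt targets, 6 rose and 10 fell, beside 28.8% and 29.1% of all genes tested, with a median of −0.04 against 0.01. Olfm4, a secreted glycoprotein abundant in crypt base columnar cells, was at 2436, 2375, 488 and 417 CPM and fell by 2.41 on the log2 scale (SE 0.21, adjusted p = 1.02e-06). Lgr5 itself, the R-spondin receptor by which the stem cells are sorted, was at 14.1, 10.9, 13.0 and 10.8 CPM, and its groups overlapped (−0.04, SE 0.17, adjusted p = 0.847). In cells under 20% Paneth RNA with at least 1000 UMIs, Lgr5 was at −0.54 (adjusted p = 0.0416), and without the limit of 1000 UMIs at −0.48 (adjusted p = 0.0545), or −0.49 with free RNA subtracted (adjusted p = 0.0548). The GFP feature in the matrices had only 15, 21, 5 and 0 UMIs, too few to check the sort. Setdb1, intact in both, was at 8.56, 8.16, 7.57 and 5.58 CPM (−0.29, adjusted p = 0.179). Msi1 and Sox9 ran the other way to Olfm4. Msi1, an RNA-binding protein of intestinal progenitors, was at 5.53, 5.61, 34.5 and 24.8 CPM and rose by 2.44 (SE 0.17, adjusted p = 1.56e-07). Sox9, a transcription factor of the crypt base and of Paneth cells, was at 38.2, 48.7, 130 and 114 CPM and rose by 1.497 (SE 0.16, adjusted p = 5.41e-06). Both stayed higher in cells under 20% Paneth RNA, by 2.31 and 1.32. The summed share of the list was 0.464% and 0.413% of UMIs in Lgr5 WT and 0.140% and 0.112% in traced WT, and in the restricted cells, with Paneth genes out of the total, 0.469% and 0.419% against 0.212% and 0.190%.

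Genes of DNA replication and mitosis were lower in the traced sort, with exceptions among the best known markers. Of 20 replication genes, 14 fell and none rose, with a median of −0.78, and of 25 mitosis genes, 18 fell and 2 rose (Nusap1 and Prc1), with a median of −0.70. Over all genes tested, 29.1% fell and 28.8% rose. Ube2c, which loads ubiquitin for the anaphase-promoting complex, was at 331, 325, 87.1 and 111 CPM and fell by 1.73 (SE 0.17, adjusted p = 2.57e-06). Cdc20, an activator of the same complex, was at 56.2, 55.8, 12.3 and 14.8 CPM and fell by 2.07 (SE 0.15, adjusted p = 2.88e-07). The replication nuclease Fen1 fell by 1.93, and Dut, which clears dUTP, by 1.32. In contrast, Mki67, a nuclear antigen of dividing cells, was at 53.4, 37.7, 43.3 and 37.8 CPM with overlapping groups (−0.16, SE 0.17, adjusted p = 0.441). Top2a, the topoisomerase of chromosome condensation, was at 134, 121, 157 and 103 CPM (0.04, SE 0.18, adjusted p = 0.867), and it was higher by 0.44 (adjusted p = 0.0432) when every cell was thinned to 500 UMIs. After that thinning, 2.78% and 1.86% of the cells under 20% Paneth RNA in Lgr5 WT and 2.12% and 1.61% in traced WT had a Mki67 UMI. Per 1e6 UMIs outside the Paneth list, Mki67 was at 71.3, 46.8, 59.6 and 52.1 in these cells, and at 53.9 and 39.6 in traced barcodes of 100 to under 500 UMIs. Without thinning, 28.6% and 20.4% of all kept Lgr5 WT cells and 7.05% and 5.19% of all kept traced WT cells had one, at the unequal depths given above.

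Enterocyte genes rose in large part. Of 22 genes of fat and vitamin A absorption, 16 rose and 2 fell (median 1.85), of 24 brush border genes 23 rose and none fell (1.74), of 27 nutrient, bile acid and ion transporters 24 rose and 1 fell (2.52), and of 13 villus tip genes 10 rose and 1 fell (1.35). Among all genes tested, 28.8% rose and 29.1% fell. The lipid droplet coat gene Plin2 was the lowest member of the fat list at −2.49, Slc7a7 of the transporters at −0.89 and Junb of the villus tip list at −1.503. Apoa4, an apolipoprotein of chylomicrons, was at 8.40, 9.86, 360 and 351 CPM and rose by 5.28 (SE 0.18, adjusted p = 4.09e-10). Apoa1 was at 85.8, 92.5, 771 and 941 CPM and rose by 3.26 (SE 0.19, adjusted p = 3.42e-08). The groups stood apart for both apolipoproteins, and replicates lay close together. Fabp1 was at 299, 862, 1360 and 1859 CPM and rose by 1.47 (SE 0.37, adjusted p = 0.00387), but Lgr5 WT 2 lay nearer to traced WT 1 than to Lgr5 WT 1. Without traced WT replicate 2, Fabp1 no longer passed (1.22, adjusted p = 0.104), nor did it with DESeq2's Wald test (1.46, adjusted p = 0.0950).

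Lct, Slc15a1 and Tmprss15, which were under 1 CPM in the Lgr5 sort, were present in the traced sort. Lactase (Lct), the milk sugar enzyme, was at 0.571, 0.573, 19.6 and 19.04 CPM, a rise of 5.07 (SE 0.19, adjusted p = 8.56e-10). Slc15a1, the peptide transporter PEPT1, was at 0.394, 0.494, 15.4 and 12.8 CPM and rose by 5.00 (SE 0.23, adjusted p = 3.91e-09). Tmprss15, the enteropeptidase that activates trypsinogen, had 0 and 2 UMIs in Lgr5 WT and 802 UMIs over both traced libraries. The ratio of its pooled CPM after TMM scaling was 1887, with an exact 95% interval of 521 to 15610 that covers counting error only, and without scaling the ratio was 1191. Fabp6, which carries bile acids in ileal enterocytes, was at 184, 139, 933 and 1652 CPM and rose by 3.00 (SE 0.27, adjusted p = 1.52e-06). The glucose transporter Slc5a1 rose by 2.52 and the drug efflux pump Abcb1a by 4.05. Of genes that mark the villus tip, Ada, an adenosine deaminase, was at 6.02, 6.05, 126 and 128 CPM (4.39, SE 0.15, adjusted p = 4.09e-10), and Pmp22 rose by 6.62.

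The barcodes below the size of a cell held the same RNAs. Without TMM scaling, which was not fitted to them, Apoa4 was at 20.8, 17.9, 270.3 and 222 CPM in barcodes with 100 to under 500 UMIs, against 11.1, 12.01, 293 and 268 in kept cells on that scale, and Lct at 1.07, 0.512, 14.0 and 10.8 CPM against 0.753, 0.698, 15.9 and 14.5. After thinning to 500 UMIs, Apoa4 was found in 0.665% and 0.469% of the Lgr5 WT cells under 20% Paneth RNA and in 11.4% and 11.5% of such cells in traced WT, and Rbp2, a retinol carrier, in 7.98% and 10.4% against 28.1% and 32.1%. The traced cells with 20 to 60% Paneth RNA, whose median Paneth share was 31.2% and 45.1% against 44.98% and 47.4% in the barcodes of 100 to under 500 UMIs, held 61.2% and 57.04% of their UMIs outside the Paneth list, and those with 60% or more held 16.2% and 17.9%, against 92.04% and 90.8% in cells under 20%, so thinned shares cannot be compared between these ranges. Levels per 1e6 UMIs outside the Paneth list do not have that limit. On this scale Apoa4 was at 11.3, 12.2, 495 and 448 in cells under 20%, at 547 and 449.9 in traced cells with 20 to 60%, at 491 and 422 in the traced barcodes of 100 to under 500 UMIs, and at 312 and 135 in traced cells with 60% or more. Rbp2 was at 454, 672, 2558 and 2748 in cells under 20%, at 1806 and 2245 in traced cells with 20 to 60%, at 1853 and 2418 in those traced barcodes, and at 1207 and 1636 in the traced cells with 60% or more. The traced cells under 20% were thus near the level of the barcodes below the size of a cell for Apoa4. Free RNA in them was estimated as their Paneth share over that of the barcodes of 100 to under 500 UMIs. It came to 17.7% and 19.5% of their UMIs, against 5.92% and 6.56% in Lgr5 WT. These cells were chosen for a Paneth share under 20%, so that limit caps the estimate. No cell was left out by the thinning. Without it, median depths in the cells under 20% were 7491, 6012, 1423 and 1614 UMIs, and Apoa4 was in 4.98%, 4.00%, 19.7% and 22.7% of all kept cells, Rbp2 in 25.7%, 32.2%, 45.7% and 62.2%, Cyp3a11 in 0.410%, 0.416%, 20.7% and 20.6%, Muc2 in 28.8%, 25.6%, 47.0% and 47.3%, and Car1 in 0%, 0%, 14.3% and 30.3%.

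**Figure D3:**
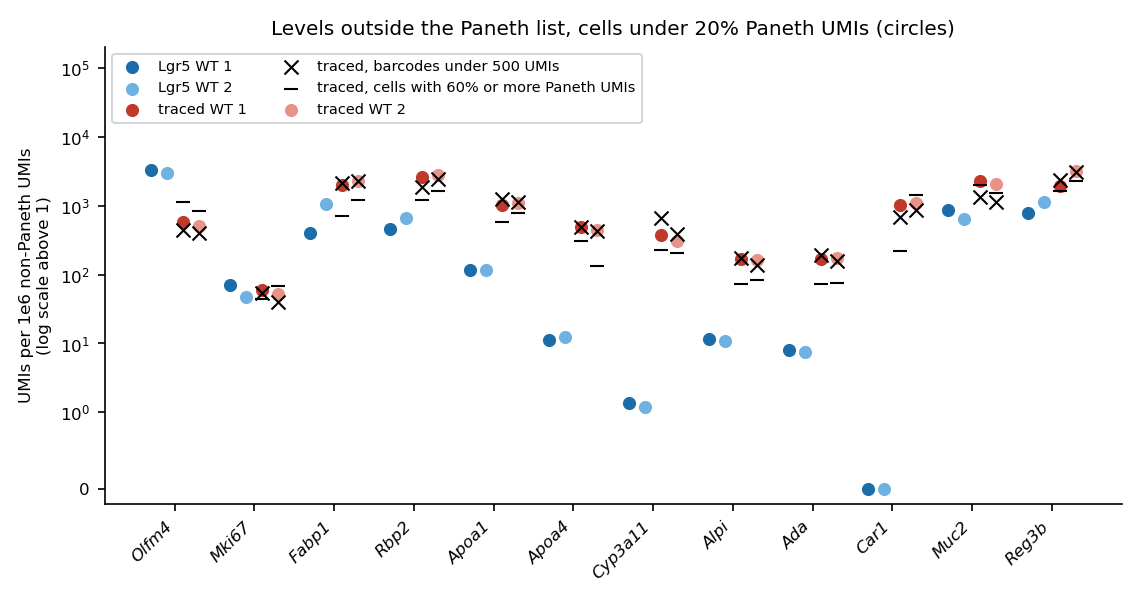
Level of 12 genes per 1e6 UMIs outside the Paneth list (log axis above 1, linear below) in cells under 20% Paneth RNA of the 4 libraries (circles), in traced barcodes of 100 to under 500 UMIs (crosses) and in traced cells with 60% or more Paneth RNA (dashes). For Apoa4 the traced circles (495 and 448) lie beside the crosses (491 and 422), for Cyp3a11 (370 and 305) they lie below them (652 and 390), and for both genes the Lgr5 circles lie at 12.2 or less.

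The CDX2, HNF4 and TCF/LEF letters marked above were counted on both strands over the promoters of 10222 tested genes. The CDX2 letters were in 8.77% of these promoters, the HNF4 letters in 0.597% and the TCF/LEF letters in 3.15%. Among 97 genes of the fat, brush border, transporter, villus tip and xenobiotic lists, the shares were 24.7%, 5.15% and 2.06% in the same order. Without CDX2 matches that overlap TATA box letters, the shares were 5.997% of all genes and 14.4% of the 97. Among 489 genes that rose by more than 2 on the log2 scale they were 16.6%, 1.43% and 6.95%. Among 176 genes that fell by more than 2 they were 10.2%, 0.568% and 5.11%, and without TATA box overlap the CDX2 letters were in 9.82% of the 489 and 9.66% of the 176. These are counts of letters, with no test. Near-identical copies each count as a gene, such as Defa20, Defa21 and Defa22 among the 489, which all hold TCF/LEF and CDX2 letters.

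Enzymes of drug and redox metabolism and of metal handling rose for the most part. Of 26 xenobiotic and redox genes, 17 rose and 3 fell, with a median of 1.18, and of 11 iron and zinc genes, 8 rose and 2 fell, with a median of 1.08. The shares over all genes tested were 28.8% higher and 29.1% lower. Cyp3a11 was at 1.02, 0.949, 275 and 260 CPM, a rise of 8.08 (SE 0.20, adjusted p = 8.13e-11). It was found, after thinning, in 0.0831% and 0.0648% of Lgr5 WT cells under 20% Paneth RNA and in 10.9% and 9.20% of those cells in traced WT. Per 1e6 UMIs outside the Paneth list, it was at 1.37, 1.18, 370 and 305 in cells under 20%, at 476 and 357 in traced cells with 20 to 60%, at 231 and 208 in traced cells with 60% or more, and at 652 and 390 in traced barcodes of 100 to under 500 UMIs. The glutathione transferases Gsta1 and Gstm3 rose by 4.06 and 4.40, and in the barcodes of 100 to under 500 UMIs Gstm3 was at 32.0, 36.02, 342 and 409 CPM without TMM scaling, against 40.5, 44.8, 562 and 559.7 in kept cells on that scale. Metallothionein 2 (Mt2), which binds zinc, was at 34.3, 28.7, 387 and 310 CPM and rose by 3.47 (SE 0.18, adjusted p = 1.34e-08), while its neighbour Mt1 rose by 0.93. The manganese exporter Slc30a10 rose by 5.57, whereas Ftl1, the ferritin light chain, was at 1097, 1250, 306 and 511 CPM and fell by 1.52 (SE 0.24, adjusted p = 0.000121).

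Of 27 transcription factors of the enterocyte line, 12 rose and 4 fell, beside 28.8% and 29.1% of all genes tested, with a median of 0.24. Maf, a factor of mature enterocytes, was at 5.67, 6.86, 42.9 and 34.5 CPM and rose by 2.64 (SE 0.16, adjusted p = 5.79e-08). Cdx2, which sets intestinal identity, was at 106, 107, 37.0 and 39.7 CPM and fell by 1.48 (SE 0.14, adjusted p = 2.14e-06). Elf3, an epithelial ETS factor, fell by 1.36. Of 19 genes of the Notch pathway and secretory fate, 6 rose and 4 fell, with a median of 0.28, beside 28.8% and 29.1% of all genes tested. The Notch receptor gene Notch2 was at 4.23, 4.61, 25.2 and 41.9 CPM and rose by 2.88 (SE 0.21, adjusted p = 2.67e-07), and the Notch target Hes1, which represses secretory fate, was at 72.2, 71.4, 288 and 210 CPM and rose by 1.80 (SE 0.17, adjusted p = 2.42e-06). Sox4 and Insm1, expressed in secretory and endocrine precursors, fell by 1.32 and 2.32.

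Paneth genes rose as a group. All 25 tested members rose and none overlapped between the sorts, beside 79.5% of all genes tested, from 1.53 for Mmp7, the protease that activates alpha-defensins, to 8.04 for Defa21, with a median of 5.23. Defa24 was at 4430, 6158, 222070 and 218926 CPM (5.38, SE 0.48, adjusted p = 1.36e-06), the highest level of the named genes in the traced libraries. In barcodes with 100 to under 500 UMIs Defa24 was at 28032, 36716, 197082 and 204398 CPM without TMM scaling, above the 5843, 7496, 180729 and 167253 CPM of kept cells on that scale in every library. After thinning, 99.9% and 100% of the traced cells under 20% had a Defa24 UMI, against 40.5% and 53.5% of such cells in Lgr5 WT. Lyz1, lysozyme, was in 22.8% and 21.7% of the thinned traced cells under 20%, against 5.69% and 7.17% of such cells in Lgr5 WT. Several alpha-defensin genes are near-identical copies, so reads could have been split among them in counting and values for single members are uncertain.

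Of 21 goblet cell genes, 6 rose, a share near the 28.8% of all genes tested, and 1 fell, with a median of 0.09 against 0.01. Muc2, the gel-forming mucin, was at 650, 537, 1683 and 1493 CPM and rose by 1.42 (SE 0.20, adjusted p = 5.08e-05). Spink4, a protease inhibitor listed with the goblet genes, was at 4923, 6035, 22024 and 19855 CPM and rose by 1.93 (SE 0.28, adjusted p = 8.19e-05). After thinning to 500 UMIs, it was in 98.4% and 99.04% of the traced cells with 60% or more Paneth RNA. Per 1e6 UMIs outside the Paneth list, Spink4 was at 20570 and 16460 in traced cells under 20% Paneth RNA. Traced cells with 60% or more held 85030 and 66310, and traced barcodes of 100 to under 500 UMIs held 27190 and 28460. Zg16, a lectin of the mucus, was at 9042, 5972, 5361 and 10162 CPM, with overlapping groups (0.05, SE 0.33, adjusted p = 0.911). After thinning to 500 UMIs, Muc2 was in 15.8% and 12.1% of Lgr5 WT cells under 20% Paneth RNA, and in 27.6% and 26.2% of traced ones. Per 1e6 UMIs outside the Paneth list, it was at 857, 637, 2264 and 2089 in these cells, at 1981 and 1519 in traced cells with 60% or more Paneth RNA, and at 1323 and 1117 in traced barcodes of 100 to under 500 UMIs. Goblet-rich cells, with at least 3% of UMIs from 7 goblet genes and at least 1000 UMIs, were 18.5% and 16.5% of cells of that depth in Lgr5 WT and 26.7% and 26.2% in traced WT. In traced WT 2, 491 cells lay within 20% of that limit, beside the 556 that passed it, so the share rests on where the limit lies. With the limit at 6% the shares were 16.1% and 12.9% against 17.5% and 12.4%. Spink4 was 1 of the 7 genes and Paneth RNA was not limited here, so cells rich in Paneth RNA could pass.

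The antimicrobial lectin genes Reg3g and Reg3b rose, while Lypd8 fell. Of 15 Reg and antimicrobial genes, 8 rose and 2 fell, beside 28.8% and 29.1% of all genes tested, with a median of 0.99. Reg3g, which binds Gram-positive bacteria, was at 426, 625, 1798 and 3501 CPM and rose by 2.33 (SE 0.30, adjusted p = 3.09e-05), and Reg3b rose by 1.40 (adjusted p = 0.00105). Per 1e6 UMIs outside the Paneth list, Reg3g was at 2013 and 3949 in traced cells under 20%, at 5825 and 6517 in traced cells with 60% or more Paneth RNA and at 2771 and 4189 in traced barcodes of 100 to under 500 UMIs, and Reg3b at 1930 and 3156, 1613 and 2240, and 2382 and 3045 in the same order. Retnlb, a resistin-like protein of goblet cells, was at 1.02, 1.28, 17.4 and 26.6 CPM (4.20, SE 0.23, adjusted p = 1.86e-08). Lypd8, which keeps flagellated bacteria off the epithelium, was at 1196, 1209, 299 and 362 CPM and fell by 1.87 (SE 0.19, adjusted p = 4.10e-06).

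Most enteroendocrine genes were lower in the traced sort. Of 26, 19 fell and none rose, beside 29.1% and 28.8% of all genes tested, with a median of −1.43. The 7 not called were Chga, Neurod1, Nts, Pcsk1, Pyy, Sct and Tph1. Scaled to UMIs outside the Paneth list, Chga was at 50.6, 87.8, 74.1 and 102.8 in cells under 20% Paneth RNA, with overlapping groups. After thinning, it was in 1.41% and 1.75% of these cells in Lgr5 WT, and in 1.09% and 1.37% in traced WT. Ghrl, the hunger hormone ghrelin, was at 111, 164, 3.11 and 3.12 CPM and fell by 5.46 (SE 0.24, adjusted p = 3.17e-09). Cck, the hormone that empties the gall bladder, was at 109, 196, 7.83 and 4.10 CPM and fell by 4.56 (SE 0.31, adjusted p = 1.46e-07). Cells with a very high share of this list were seen in the Lgr5 sort, where the top 1% of cells had over 8.28% and 10.8% of their UMIs from it, against 0.394% and 0.299% in traced WT. Of 24 tuft cell genes, 12 fell and 2 rose, with a median of −0.64, among them Rgs13, a regulator of G protein signals, which fell by 1.30.

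Lymphocyte RNA was present in the Lgr5 sort and almost absent from the traced one. Of 19 tested T cell and intraepithelial lymphocyte genes, 17 fell and none rose, beside 29.1% and 28.8% of all genes tested. Their median was −3.88, or −2.79 with the 4 members at 0 in traced WT set to the bound that 3 UMIs over the group allows. The granzyme Gzma was at 34.5, 32.5, 0.583 and 1.15 CPM and fell by 5.47 (SE 0.24, adjusted p = 3.29e-09), and the chemokine Ccl5 fell by 2.61. Cd8a had 110 UMIs over both Lgr5 WT libraries and 0 in the traced ones, a level at least 7.79-fold higher after TMM scaling, or 12.3-fold without it, against a floor of 3 UMIs over the traced group. The list made up 0.0143% and 0.0120% of UMIs in Lgr5 WT and 0.000801% and 0.00108% in traced WT. A further list of B cell, macrophage, stromal and red cell genes had 4 of 20 members tested, of which Cd79a and Igkc fell, and Igkc, an immunoglobulin light chain, came nearly all from Lgr5 WT 2, at 1.32, 81.0, 0.842 and 1.48 CPM.

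Of 17 class I presentation genes, 10 fell and 2 rose (median −0.58), of 7 class II genes 4 fell and 1 rose (−0.70), and of 22 immediate early and heat shock genes 13 fell and 2 rose (−0.99). Of 29 interferon genes 8 fell and 7 rose (−0.14), shares near the 29.1% and 28.8% of all genes tested. H2-D1, a class I heavy chain, was at 334, 311, 86.0 and 87.5 CPM and fell by 1.89 (SE 0.15, adjusted p = 6.53e-07). Cd74, the invariant chain of class II, was at 1263, 890, 550 and 774 CPM and fell by 0.70 (SE 0.23, adjusted p = 0.0175). That call was lost without Lgr5 WT replicate 1 (−0.43, adjusted p = 0.203) and without traced WT replicate 1 (−0.48, adjusted p = 0.168). The chaperone Hspa8 was at 1319, 1319, 266 and 290 CPM and fell by 2.25 (SE 0.19, adjusted p = 7.74e-07), Hsp90ab1 fell by 1.28 and the antiviral membrane protein Ifitm3 by 1.47. Of 11 regenerative or fetal-like genes, 4 fell and 3 rose, and of 18 apoptosis and p53 genes 7 rose and 7 fell, beside the same shares of all genes. Krt19, an epithelial keratin, was at 1133, 1222, 222 and 246 CPM and fell by 2.33 (SE 0.19, adjusted p = 5.82e-07). Other members went the other way. The highest of the regenerative, class I and interferon lists were Anxa1 at 4.38, H2-Q1 at 2.69 and Rsad2 at 2.20, all called higher.

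**Figure D4:**
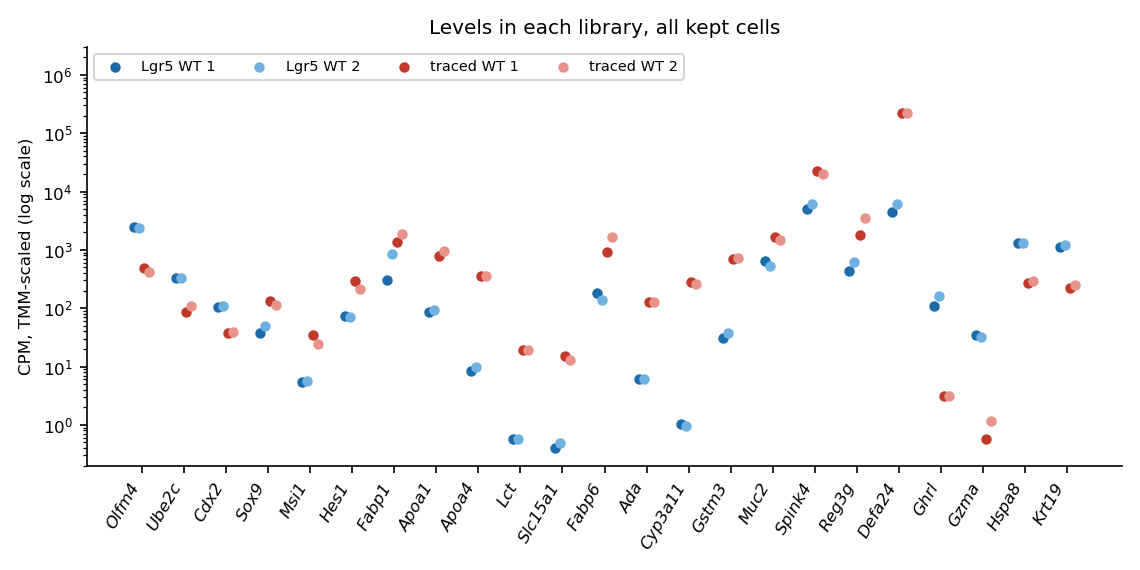
CPM after TMM scaling, on a log axis, of 23 named genes in the 2 Lgr5 WT and 2 traced WT libraries over all kept cells. For each gene shown the libraries of a group lie closer to each other than to the other group, except Fabp1, where Lgr5 WT 2 lies nearer to traced WT 1 than to Lgr5 WT 1 on this axis.

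Noncoding RNAs listed as nuclear and mRNAs of the translation machinery also separated the sorts. All 7 tested members of the nuclear list rose, beside 28.8% of all genes tested, with a median of 2.73. They were Gm42418, Kcnq1ot1, Malat1, Meg3, Mir22hg, Neat1 and Xist. Meg3 had 3 UMIs over both Lgr5 WT libraries and 70 over the traced ones. Xist was called higher in mice that the study describes as male. Malat1, an abundant nuclear RNA, was at 5543, 6308, 25633 and 22808 CPM and rose by 2.03 (SE 0.29, adjusted p = 6.01e-05), and Gm42418, which overlaps a ribosomal RNA repeat, was at 1247, 882, 24066 and 25909 CPM and rose by 4.55 (SE 0.33, adjusted p = 2.78e-07). Gm42418 was at 23422, 13906, 98307 and 42568 CPM without TMM scaling in barcodes of 100 to under 500 UMIs, against 1644, 1073, 19586 and 19794 in kept cells on that scale. Of 78 cytosolic ribosomal protein genes, 44 fell and 8 rose, beside 29.1% and 28.8% of all genes tested. Their median was −0.63, from −2.40 for Rpl3 to 1.46 for Rpl37. Of 74 nuclear-encoded genes of oxidative phosphorylation, 26 rose and 21 fell, beside 28.8% and 29.1% of all genes tested, with a median of 0.11, and Ndufa3, a subunit of respiratory complex I, was the highest at 2.15. Subunits of the same ribosome thus changed in opposite directions by more than their errors.

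Within these lists and across all genes, the change moved with the length of the transcript. Of 13278 genes tested, 12102 (91.1%) had a principal transcript in the mm10 annotation (GENCODE vM21). The median change was 1.18 for 116 genes of up to 500 bases, of which 61.2% rose, −0.69 for 1225 genes of 1000 to 1500 bases, of which 57.6% fell, and 0.48 for 1413 genes of over 6000 bases, of which 50.2% rose. Among oxidative phosphorylation genes, 5 of 6 with transcripts of up to 500 bases rose and none fell, while 16 of 27 of over 1000 bases fell and 5 rose. Spearman's rho between length and change was −0.59 over 73 of these genes and −0.30 over 78 ribosomal protein genes, as a description across genes, which share libraries and are not independent. The same course with length was found in cells under 20% Paneth RNA, with 0.93, −0.68 and 0.46 in the same 3 classes. The part of transcript length in the results above was not tested. Medians relative to genes of the same length class were 1.86 for fat absorption, 1.89 for the brush border and 1.85 for transporters. They were −0.47 for replication, −0.85 for mitosis, −1.08 for enteroendocrine genes and −0.54 for ribosomal proteins. The class II median was −0.70 before and −0.01 after this step, and the interferon median −0.14 before and 0.25 after.

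**Figure D5:**
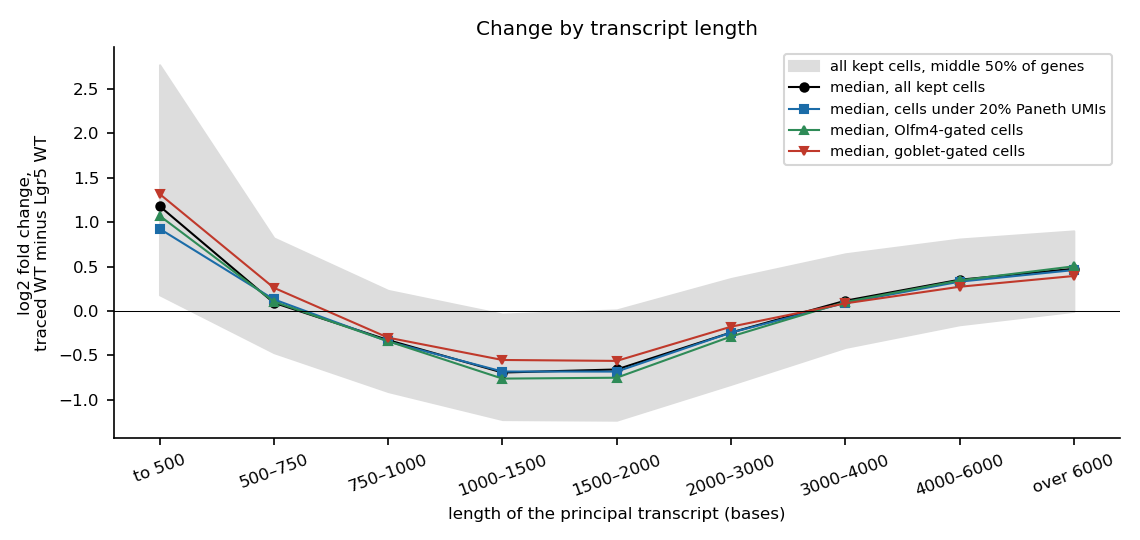
Median log2 fold change, traced WT minus Lgr5 WT, of genes grouped by the length of their principal transcript, for all kept cells, cells under 20% Paneth RNA, Olfm4-gated cells and goblet-gated cells; the grey band holds the middle 50% of genes over all kept cells. The 4 lines fall together from 0.93 or more at up to 500 bases to between −0.55 and −0.76 at 1000 to 2000 bases and rise to between 0.40 and 0.50 at over 6000 bases.

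Genes were next compared between the sorts within gates on a few genes. Gates were set on cells with at least 1000 UMIs: Olfm4 at 0.1% of UMIs or more, 10 enterocyte genes at 5% or more, or 7 goblet genes at 3% or more. Cells of the Olfm4 gate also had to be under the 5% enterocyte and 3% goblet limits. Cells of the enterocyte gate had to be under the goblet limit, and cells of the goblet gate under the enterocyte limit. Only a gate's own genes were left out of its test. A gate is a range of expression, not a cell type, and no gate limited the share of Paneth RNA. Median depths in the Olfm4 gate were 7513, 5870, 1717 and 1717 UMIs, so that 2 Olfm4 UMIs were enough for a traced cell of that depth, and the cells that pass are not shown to be alike. The Olfm4 gate held 2521, 3316, 760 and 193 cells, which were 52.9%, 54.1%, 14.2% and 9.09% of cells of that depth, and at a limit of 0.2% it held 310 and 66 traced cells. The enterocyte gate held 18, 34, 223 and 68 cells, or 0.378%, 0.554%, 4.16% and 3.202%, and 8, 36, 136 and 46 cells lay within 20% of its limit. For the Olfm4 gate, 435 traced WT 1 and 163 traced WT 2 cells lay within 20% of the limit, against 151 and 202 in Lgr5 WT.
In Olfm4-gated cells 2120 of 11667 genes tested were higher (18.2%) and 2578 lower (22.1%), 40.3% in all, in enterocyte-gated cells 673 (28.5%) and 632 (26.8%) of 2359, 55.3% in all, and in goblet-gated cells 1841 (17.5%) and 1899 (18.0%) of 10545, 35.5% in all. Leaving out traced WT replicate 1 brought the Olfm4-gated calls from 4698 to 2436 and the enterocyte-gated calls from 1305 to 815, and leaving out Lgr5 WT replicate 1 brought the goblet-gated calls from 3740 to 2479. With the Olfm4 limit doubled, 1221 genes were higher and 2005 lower. Of 2340 genes tested in all 3 gates, 415 were higher and 425 lower in each. The 6 that rose with the smallest p by the rule were the alpha-defensin genes Defa21, Defa22, Defa29 and Defa30, together with Gm15293 and Gstm3. The 6 that fell were Ssr2, Eif3h, Cldn3, Eif3f, Lypd8 and Tmsb4x. Eif3f, a subunit of a translation initiation factor, was at 629, 729, 104 and 127 CPM over all kept cells and fell by 2.62, 2.59 and 2.03 in the Olfm4, enterocyte and goblet gates. Tmsb4x, which binds actin, fell by 2.09, 1.55 and 2.28, and Ssr2, a subunit of the protein translocation complex of the endoplasmic reticulum, by 2.19, 2.79 and 2.73.

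Of 28 crypt base genes tested within the Olfm4 gate, 8 were higher and 4 lower, beside 18.2% and 22.1% of all genes tested there, with a median of 0.33 against −0.03. The difference between the gate and the whole sorts was not tested. Msi1 was higher by 3.04 (adjusted p = 7.50e-10) and Sox9 by 1.76 (adjusted p = 7.61e-08), while Lgr5 was at 0.33 (adjusted p = 0.264). Of 20 replication genes, 11 were lower and 2 higher, and of 25 mitosis genes 10 were lower and 3 higher. Muc2 was higher by 3.11 and Apoa4 by 5.02 in these cells too, and 24 of 24 tested Paneth genes were higher. Muc2 and Apoa4 were among the goblet and enterocyte genes whose limits kept cells out of this gate, so the gate caps both in both sorts. Paneth RNA in the barcodes of under 500 UMIs moved with the values of this gate, and its part in them was not tested. Within the enterocyte gate, 15 of 21 brush border genes and 12 of 22 transporters were higher and 0 and 3 were lower. Of 10 fat absorption genes 5 were higher and 3 lower, of 24 xenobiotic and redox genes 12 and 8, and of 9 villus tip genes 6 and 1. Over all genes tested in this gate, 28.5% were higher and 26.8% lower. Ada had 0 UMIs in Lgr5 WT and 194 in traced WT, at least 71.1-fold higher after TMM scaling, or 53.2-fold without it, against a floor of 3 UMIs over the Lgr5 WT group. Fabp6 had 7 and 876 UMIs, and Reg3b, higher over all kept cells, was lower by 1.56 (adjusted p = 3.24e-05).

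Over all genes, the 8 with the smallest p that rose were Cyp3a11, Clca4a, Defa20, Cyp2c55, Car1, Defa35, Akp3 and Tmprss15. Car1, a carbonic anhydrase known from the epithelium of the caecum and colon, had 0 UMIs in both Lgr5 WT libraries and was at 681 and 856 CPM in traced WT. With 15733 UMIs over the traced libraries, its level was at least 24680-fold higher after TMM scaling, or 15580-fold without it, than a floor of 3 UMIs over the Lgr5 WT libraries. Car1 was in 6.66% and 9.44% of the traced cells under 20% Paneth RNA after thinning. Per 1e6 UMIs outside the Paneth list, it was at 1023 and 1078 in the traced cells under 20%, at 767 and 967 in those with 20 to 60%, at 219 and 1432 in those with 60% or more, and at 672 and 860 in traced barcodes of 100 to under 500 UMIs. In Lgr5 WT it was in 0 of 4880 and 0 of 6253 cells, which allows shares of cells with a UMI of up to 0.0615% and 0.0480% and does not limit the share of cells that express it. In barcodes of 100 to under 500 UMIs it was at 0, 0, 369.9 and 452 CPM without TMM scaling, against 0, 0, 554 and 654 in kept cells on that scale. Because Car1 marks the large intestine, Hoxb13, a transcription factor gene of that region, was looked up, chosen after the values of Car1 were seen, and had 0, 0, 12 and 8 UMIs. The part of another gut region in the traced sort, and so in the enterocyte and drug enzyme values above, was not tested.

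Akp3, an alkaline phosphatase of the duodenum, was at 0.354, 0.573, 43.2 and 49.2 CPM and rose by 6.62 (SE 0.21, adjusted p = 2.63e-10). Clca4a, of the chloride channel accessory family, rose by 8.85 and Cyp2c55, a cytochrome P450 known from the large intestine, by 7.34. Of the 8 genes with the smallest p that fell, Ghrl and Gzma are described above. Gt(ROSA)26Sor, the noncoding RNA of the ROSA26 locus, was at 38.2, 41.8, 2.98 and 2.13 CPM and fell by 3.89 (SE 0.19, adjusted p = 7.56e-09). The nTnG cassette sits in this locus in the traced mice alone. H2afx, a histone variant that is phosphorylated at DNA breaks, was at 192, 163, 22.8 and 27.1 CPM and fell by 2.85 (SE 0.17, adjusted p = 3.57e-08), and the splicing factor gene Srsf7 fell by 2.48. The remaining members were Gtf2h4, Akr1e1 and Cdo1, which fell by 2.67, 2.81 and 2.38.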

How the data were processed

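GFP-sorted ileal crypt cells were measured by 10x Genomics 3′ single-cell RNA-seq. The deposited files are unfiltered UMI count matrices that the authors made with Cell Ranger (6.1.1 in the submitters' processing notes; the file headers name version 4) on mm10. Counting with or without introns is not given in the sources used here. The analysis took the 4 WT libraries, filtered barcodes as stated, summed UMI counts per library and fitted edgeR 4.0.16 (filterByExpr, TMM, quasi-likelihood, R 4.3.3). The fit was also run on simulated counts in which few genes changed, evenly in both directions. Most genes differ between these libraries, so that run cannot decide how reliable the calls here are. Doublets were not removed. Members and lists were chosen with earlier results of these data known. Named genes were the markers, the 4 highest and 2 most changed members of each list, the 8 smallest p-values per direction with a log2 change of at least 1 and no overlap, and 6 per direction across the 3 gates. The planned free RNA window of 10 to 100 UMIs held from 0.240% to 27.0% of a library's UMIs, so barcodes with 100 to under 500 UMIs were used, a choice made after seeing the data, as were the ranges of Paneth RNA. Coordinates follow RefSeq. Intervals cover counting error only. Some results on single genes are not reported here.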

Additional observations from a re-analysis of the deposited data

Results flagged for a closer look

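Of the 8 genes with the smallest p among those higher in traced WT, 6 were also above the level of the Lgr5 sort in libraries that the report does not use, those of mice with a Setdb1 deletion. Both traced Setdb1-deleted libraries lay above both Lgr5-sorted ones, as they did for 27.2% of all genes tested and 60.4% of the genes higher in traced WT. In CPM without TMM scaling, Car1 was at 178.7 and 263.8 against 0 and 0, Defa20 at 37.98 and 14.44 against 0.8341 and 3.627, and Defa35 at 63.79 and 37.04 against 1.523 and 7.125. Cyp2c55 was at 10.05 and 4.715 against 1.741 and 1.562, Clca4a at 1.676 and 0.9729 against 0.6165 and 0.08133, and Tmprss15 at 0.2234 and 0.1871 against 0.03627 and 0.06507, which for Tmprss15 is 2 and 5 UMIs against 1 and 4. Cyp3a11 and Akp3 were not above in both, at 1.787 and 1.197 against 2.176 and 2.261, and at 0.4469 and 0.2619 against 0.4352 and 0.4229. The same library split, by sort, nTnG allele and library number series, holds there. No difference between genotypes was tested.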

How the results depend on the processing

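Over all kept cells, the counts of genes higher and lower (3829 and 3862) stayed within 1.5 times under every alternative but thinning every cell to 500 UMIs, which gave 2432 and 2443 of 9740 genes tested. Leaving out 1 library gave 2603 to 3558 higher and 2987 to 3688 lower genes, 2436 to 4878 calls in Olfm4-gated cells, 815 to 1402 in enterocyte-gated cells and 2479 to 4256 in goblet-gated cells. Doubling the gate limit took enterocyte-gated calls from 1305 to 278, with 3, 5, 67 and 25 cells left. With the replicate block, calls were 3979 higher and 4044 lower, 4523, 1278 and 3759 in the gates. The libraries share only a number (the correlation of deviations of same-numbered libraries was 0.0698 over 13278 genes), and the cause of these differences was not tested. Without a filter on low counts, the share of higher genes among calls went from 49.8% to 44.2% and the median of all genes from 0.01 to −0.12. For 75 genes named, 1245 of 1267 alternative values kept direction and side of the threshold, 9 lost the call, 2 gained it and 11 changed sign, all 11 in genes that did not pass the test. Those were Top2a without the filter (−0.062) and at a mitochondrial limit of 10% (−0.029), Zg16 without the filter (−0.050) and Mki67 with thinning (0.36), and the others came from leaving out 1 library, which gave −0.30 to 0.29 for Top2a, −0.49 to 0.44 for Zg16, −0.38 to 0.11 for Mki67 and −0.21 to 0.15 for Lgr5. Fabp1, Reg3b and Cd74 lost their calls without the filter (adjusted p of 0.144, 0.0740 and 0.0972), and Cd74 also in a fit of all 8 libraries (0.184) and with free RNA subtracted (0.0508). The enterocyte gate held 18 and 34 cells in Lgr5 WT, which limits that fit. Alternatives that restrict cells by Paneth RNA or subtract free RNA were chosen after seeing the data. Subtracting it left 3496 higher and 3574 lower genes.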
